A study of Mus musculus with 52 samples.

Results

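The 4 mouse Hox clusters were described through 38 listed Hox genes and the enhancer regions in and around them. The genes were taken by name, without use of any measured value, and each was located in the deposited gene table by its mm10 position. All 38 were found, 1 interval each, among 24263 gene intervals. A cluster was taken as the span from the first to the last base of its listed genes, and its flanks as the 200 kb to either side. Both deposited enhancer tables were read over these spans, 1 for mouse embryonic stem cells (mESCs) and 1 for epiblast-like cells (EpiLCs), the latter resembling the epiblast shortly after implantation. The clusters held 3 of 8794 mESC regions and 2 of 16576 EpiLC regions by their centres, and the flanks held 12 and 19.

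The series itself is 52 ChIP-seq libraries in 34 groups, 43 from mESCs and 9 from EpiLCs taken at 48 hours. They compare control cells (ABE) with clones in which histone H3 lysine 27 was changed to arginine in canonical H3 (cK27R) or in all H3 (pK27R), with SUZ12 knockout cells, and, for H3.3, with knockout and wild-type add-back cells (pK27WT). The tables hold coordinates only, with 0 columns of values per library. Signal in these genotypes was therefore not analysed here, the depth is unknown, and no comparison of mutant with control cells was made. The mESC regions came from an earlier publication that is known to have used binding of the pluripotency factors Oct4, Sox2 and Nanog. The EpiLC regions came from another, which per the design text used peaks of H3K27ac, H3K4me1 and p300. Differences between the tables at the clusters cannot be told apart from these differences in definition, and none of the regions was measured in the cells of this series. Fixed lists have no replicates, so values are given as descriptions beside the same measure over all genes or chromosomes, with no test.

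Hox genes encode homeodomain transcription factors that set position along the body axis. In each cluster they lie in the order in which they act from head to tail, numbered from the anterior paralog group 1 to the posterior group 13, and they are switched on in that order. In pluripotent cells the clusters are silent and are textbook targets of Polycomb repressive complex 2, which methylates H3 lysine 27 over CpG-rich DNA. Retinoic acid signalling and the Cdx factors are known activators of the clusters, and Pbx and Meis proteins bind DNA together with Hox proteins.

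The sequences that the results turn on are the centres of regions inside or at the edge of the clusters, in mm10, on the plus strand, with each CpG in capitals. The first 2 are the EpiLC regions of the Hoxb cluster, and the next 3 are the mESC regions in Hoxc13, over Hoxd12 and beside Hoxb1. The sequence of the longest mESC region, over Hoxb13, is not shown.
EpiLC region inside Hoxb3, chr11:96341940-96342239: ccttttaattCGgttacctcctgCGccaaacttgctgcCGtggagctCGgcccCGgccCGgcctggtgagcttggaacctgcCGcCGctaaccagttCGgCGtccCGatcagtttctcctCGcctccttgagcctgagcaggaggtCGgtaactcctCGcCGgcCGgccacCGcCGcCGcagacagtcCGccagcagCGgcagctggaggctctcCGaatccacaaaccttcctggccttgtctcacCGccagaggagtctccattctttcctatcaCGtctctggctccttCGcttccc
EpiLC region upstream of Hoxb1, chr11:96363877-96364176: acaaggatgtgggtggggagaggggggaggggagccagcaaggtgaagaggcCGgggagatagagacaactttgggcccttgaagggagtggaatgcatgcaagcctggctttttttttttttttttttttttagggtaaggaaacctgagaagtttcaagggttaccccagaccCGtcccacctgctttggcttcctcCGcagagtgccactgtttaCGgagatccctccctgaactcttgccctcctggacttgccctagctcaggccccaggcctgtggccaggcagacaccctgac
mESC region in the Hoxc13 intron, chr15:102926365-102926664: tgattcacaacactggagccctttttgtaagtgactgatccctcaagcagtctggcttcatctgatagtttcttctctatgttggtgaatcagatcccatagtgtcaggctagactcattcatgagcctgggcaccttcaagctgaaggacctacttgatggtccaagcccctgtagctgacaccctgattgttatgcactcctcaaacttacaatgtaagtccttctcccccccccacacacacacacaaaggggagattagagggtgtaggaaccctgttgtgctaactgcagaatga
mESC region over Hoxd12, chr2:74675676-74675975: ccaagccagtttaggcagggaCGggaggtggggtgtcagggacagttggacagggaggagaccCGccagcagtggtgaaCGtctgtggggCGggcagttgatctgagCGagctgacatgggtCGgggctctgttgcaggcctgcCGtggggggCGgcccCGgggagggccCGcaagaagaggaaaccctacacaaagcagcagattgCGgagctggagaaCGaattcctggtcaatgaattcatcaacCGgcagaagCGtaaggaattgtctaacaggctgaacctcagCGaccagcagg
mESC region beside Hoxb1, chr11:96370266-96370565: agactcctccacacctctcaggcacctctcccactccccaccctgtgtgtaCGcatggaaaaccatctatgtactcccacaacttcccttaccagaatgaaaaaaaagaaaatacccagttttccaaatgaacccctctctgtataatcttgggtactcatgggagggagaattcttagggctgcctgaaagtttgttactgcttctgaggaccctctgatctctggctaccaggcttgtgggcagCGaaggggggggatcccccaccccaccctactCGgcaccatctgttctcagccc
The window inside Hoxb3 held 25 CpGs and that over Hoxd12 held 15, whereas the window in Hoxc13 held 0. The observed CpG number over that expected from base content was 0.862 in the Hoxb3 window and 0.572 in the Hoxd12 window, and 0.174 in the window upstream of Hoxb1. The median over the central 300 bases of all regions was 0.168 in the mESC table and 0.25 in the EpiLC table. The Hoxd12 window runs from an intron into a coding exon of Hoxd12, and the Hoxb3 window lies over an exon of the transcript Gm11536.

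**Figure D1:**
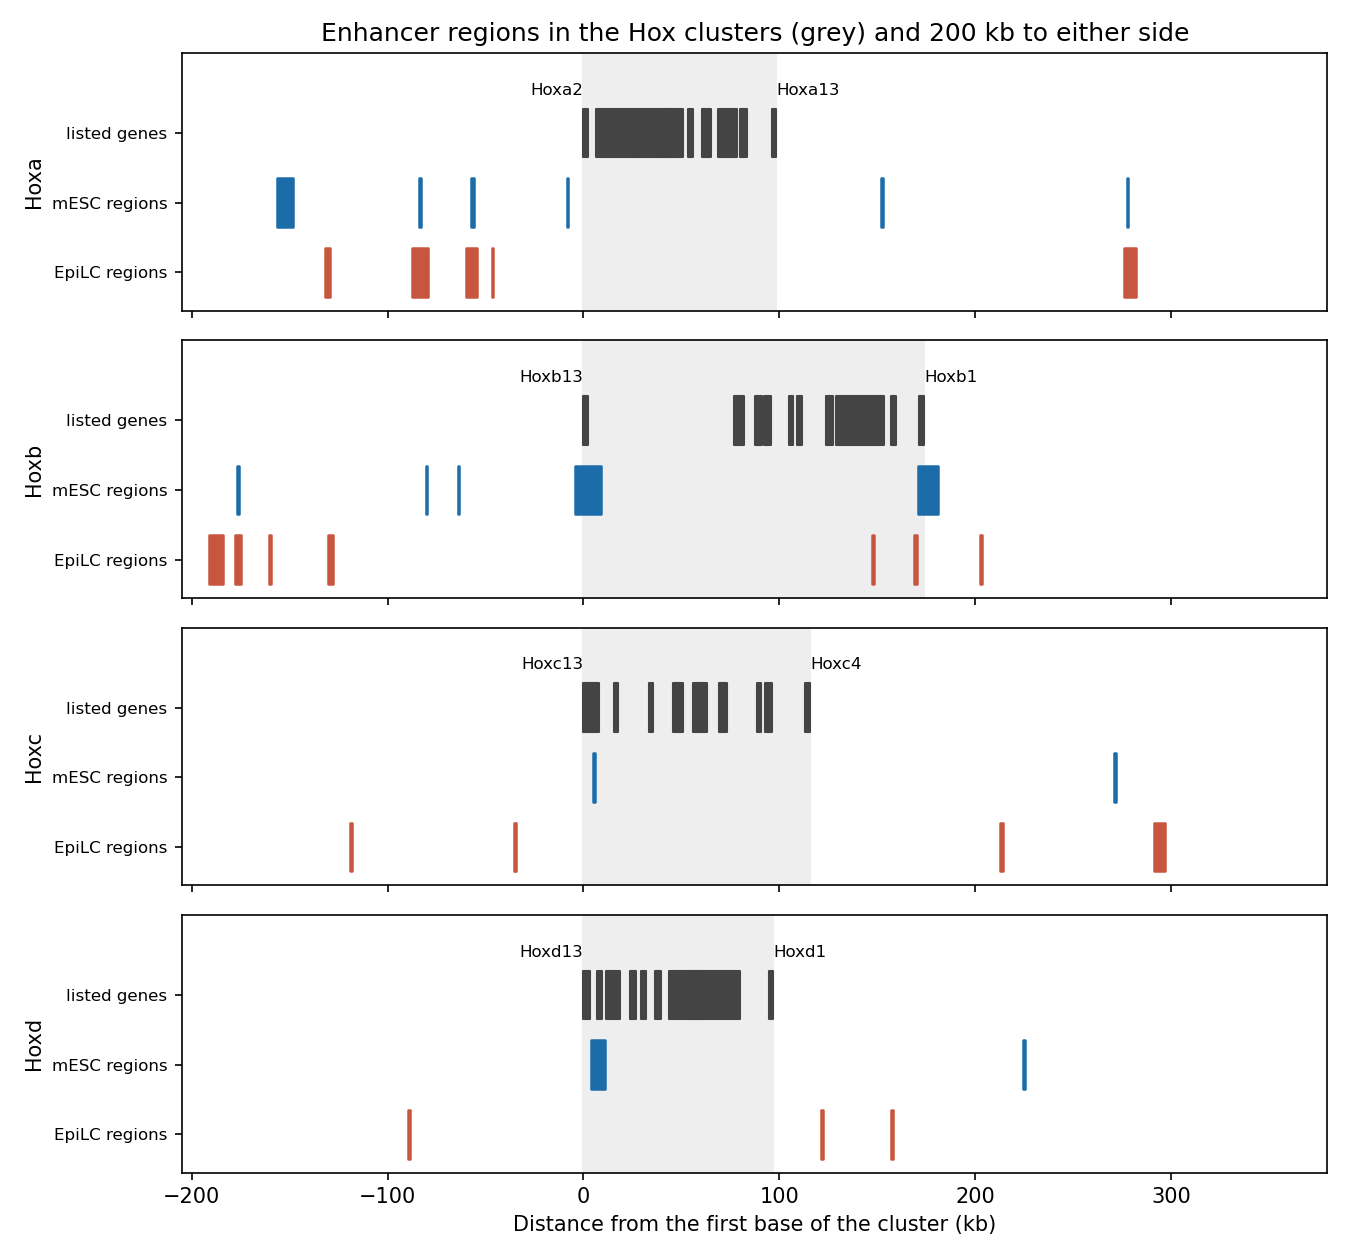
Map of the 4 Hox clusters, with distance from the first base of the cluster in kb on the x axis, clusters in grey, listed genes in dark bars, mESC regions in blue and EpiLC regions in red. No region of either table is centred inside Hoxa, and both EpiLC regions inside a cluster lie in Hoxb.

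The clusters held few regions of either table by count, and EpiLC regions were found in Hoxb alone. Over all 4 clusters, 484.9 kb in total, mESC regions were centred at 0.619 per 100 kb and EpiLC regions at 0.412 per 100 kb. Over all chromosomes the densities were 0.323 and 0.608 per 100 kb. The mESC density in the clusters was thus above that of the chromosomes and the EpiLC density below it, with counts of 3 and 2 regions behind them. Without mESC regions longer than 5 kb, a setting chosen after seeing the data, the mESC density was 0.206 in the clusters and 0.292 over all chromosomes. The mESC regions covered 4.0% of the cluster bases against 0.574% of all chromosomes, and the EpiLC regions 0.49% against 1.45%. Of the 19399 cluster bases in mESC regions, 11834 lay in Hoxb and 6919 in Hoxd, all in regions longer than 5 kb. The Hoxb bases include part of a region over Hoxb1 that is counted as flank by its centre. Without regions over 5 kb, the mESC bases left in the clusters were the 646 of the Hoxc region. Their share was not computed.

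An absence of regions from a stretch of cluster length is common in these tables. Of 100-kb windows over the chromosomes, 73.6% held no mESC region and 65.5% held no EpiLC region. The clusters differ from most windows in their gene content, since they hold 15, 15, 12 and 13 starts of gene intervals in Hoxa, Hoxb, Hoxc and Hoxd. Among windows as wide as Hoxa with at least 5 gene starts, 27.8% held no EpiLC region, and those windows held 1.73 EpiLC regions on average. The same share was 25.9% for Hoxc and 27.9% for Hoxd, while 58.8% of such windows as wide as Hoxb held 2 or fewer. For mESC regions, 67.1% of the gene-dense windows as wide as Hoxa held none. At the widths of Hoxb, Hoxc and Hoxd, which hold 1 mESC region each, 80.1%, 89.4% and 93.2% of such windows held 1 or fewer. The empty EpiLC clusters are therefore in the emptier part of windows with at least 5 starts, without being rare among them. As many starts as Hoxa, Hoxc and Hoxd were held by 0.0335%, 0.162% and 0.0658% of windows of their widths. Windows that rich in starts were not compared separately.

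The Hoxa cluster (chromosome 6, 52162417 to 52260880, 98.5 kb from Hoxa2 to Hoxa13) held 0 regions of either table. Its flanks were the most populated of the 4, with 6 mESC and 6 EpiLC regions, or 1.5 per 100 kb in each table. The EpiLC gap that contains it was 322 kb long and held the starts of all 10 Hoxa genes. The median EpiLC gap over the chromosomes was 48.1 kb, and 12.9% of gaps were at least as long. Those long gaps held 63.0% of the bases between EpiLC regions, so most such bases lie in gaps of this length. The mESC gap over Hoxa was 160.0 kb against a median of 140.0 kb, so in the mESC table it was of ordinary length.

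The Hoxb cluster (chromosome 11, 96194361 to 96368253, 174 kb from Hoxb13 to Hoxb1) held 1 mESC and 2 EpiLC regions. The mESC region, at 96190041 to 96203325, ran for 13285 bp across the start of Hoxb13, and 2.06% of mESC regions were as long. The EpiLC regions measured 925 bp (96341627 to 96342551, inside the Hoxb3 interval) and 1450 bp (96363302 to 96364751, upstream of Hoxb1). They were short for their table, in which 81.2% and 61.0% of regions were at least as long. A further mESC region of 10062 bp, at 96365385 to 96375446, covered the whole of Hoxb1 but had its centre past the cluster edge, so it counted as flank. Both ends of the Hoxb cluster thus carried a long mESC region, and the EpiLC regions lay at the anterior end. Between the EpiLC region in Hoxb3 and the one before the cluster, a gap of 275 kb held the starts of 8 genes from Hoxb3 to Hoxb13.

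The Hoxc cluster (chromosome 15, 102921131 to 103036852, 116 kb from Hoxc13 to Hoxc4) held 1 mESC region of 646 bp, at 102926192 to 102926837 in an intron of Hoxc13. It held 0 EpiLC regions, and the EpiLC gap over it was 247 kb with all 9 Hoxc starts. The remaining 8 Hoxc genes started in an mESC gap of 265 kb. The Hoxd cluster (chromosome 2, 74668310 to 74765142, 96.8 kb from Hoxd13 to Hoxd1) held 1 mESC region of 6919 bp, at 74672366 to 74679284, which covered the whole of Hoxd12 between Hoxd13 and Hoxd11. Of mESC regions, 7.25% were as long. The EpiLC gap over Hoxd was 210 kb with all 9 starts, and 19.7% of EpiLC gaps were as long. Of the bases between EpiLC regions, 70.3% lay in gaps as long as that over Hoxc. For the gap over Hoxd the share of bases was 74.2%. In Hoxb, Hoxc and Hoxd, the mESC region centred inside the cluster lay at the posterior end, at a gene of group 12 or 13. The mESC region over Hoxb1, at the anterior end of Hoxb, is left out here only because its centre lies past the cluster edge. None of the 5 regions inside the clusters overlapped a region of the other table, and the share over all regions was not computed.

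**Figure D2:**
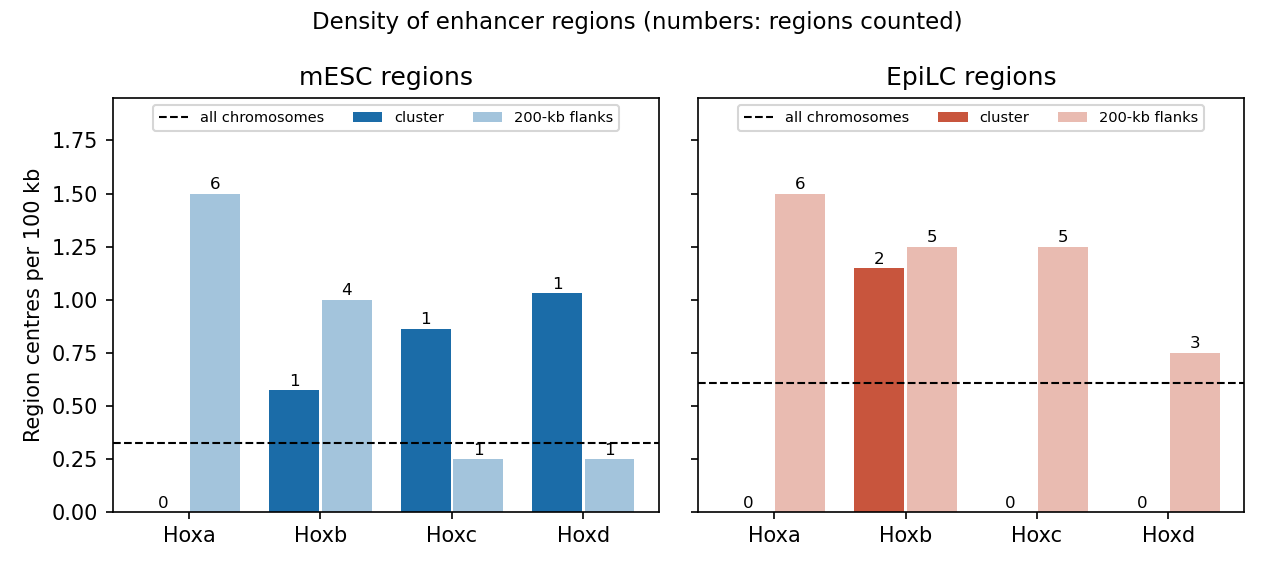
Region centres per 100 kb (y axis) in each cluster and in its flanks, for the mESC table at left and the EpiLC table at right, with the number of regions above each bar and the density over all chromosomes as a dashed line. In the EpiLC table the flanks exceed the cluster in all 4 (at Hoxb not without regions centred at gene starts), and in the mESC table the order differs between clusters.

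The flanks held more EpiLC regions per length than the clusters, whereas for mESC regions the order depended on the measure. EpiLC regions were centred at 1.19 per 100 kb in the flanks against 0.412 in the clusters, and the flank density was the higher at each of the 4 clusters. It was 1.5 against 0 at Hoxa, 1.25 against 1.15 at Hoxb, 1.25 against 0 at Hoxc and 0.75 against 0 at Hoxd. The difference at Hoxb rests on 5 against 2 regions and turned to 0.5 in the flanks against 1.15 without regions centred within 1 kb of a start of the gene table. That setting kept the EpiLC region inside Hoxb3, although its centre lies 19 bp from a GENCODE M21 start. For mESC regions the pooled densities were close, 0.75 in the flanks and 0.619 in the clusters, and any overlap in place of the centre gave 0.812 and 0.825. By covered bases the tables ran in opposite directions, with 1.72% of the flanks and 4.0% of the clusters for mESC regions, and 3.12% and 0.49% for EpiLC regions. The mESC coverage of the clusters came mostly from regions longer than 5 kb. Without them the clusters kept 1 mESC region, of 646 bp in Hoxc, and the flanks kept 10. The covered shares without them were not computed, so the opposite directions rest on these long regions. Flanks were denser at Hoxa (1.5 against 0) and Hoxb (1.0 against 0.575), and clusters were denser at Hoxc (0.864 against 0.25) and Hoxd (1.03 against 0.25), where each count is 1 region.

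Members were then followed one by one, from the start of each gene (the 5′ end of its interval) to the nearest edge of a region. The group 1 to 3 genes, which act in the hindbrain and the anterior trunk, number 7 here. Hoxb1, which gives the fourth rhombomere its identity and is known to respond to retinoic acid, was the single gene within 5 kb of both tables. Its start lay inside the mESC region of 10062 bp, at a distance of 0, and 1.01 kb from the nearest EpiLC region. Hoxb2 lay 13.8 kb from an mESC and 9.08 kb from an EpiLC region. Hoxb3, which also acts in the hindbrain, contained an EpiLC region within its interval but started 18.5 kb from the nearest one, because its interval is 24805 bp long. Hoxa2, a gene of hindbrain and branchial arch patterning, lay 10.3 kb from an mESC and 48.7 kb from an EpiLC region. Hoxd1, the anterior end of Hoxd, had the reverse order, at 83.7 kb and 26.8 kb. For the 7 anterior genes the median distance was 32.7 kb in the mESC table and 26.8 kb in the EpiLC table.

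No gene of groups 4 to 8, which pattern the trunk and number 15 here, had a region of either table within 5 kb. Their median distance was 63.7 kb to an mESC region, with a range from 25.3 kb at Hoxd8 to 108 kb at Hoxc4. To an EpiLC region the median was 85.2 kb, from 23.4 kb at Hoxb4 to 123 kb at Hoxc6. Hoxc4 was the gene farthest from any region, with 99.6 kb to the nearer table. Over all genes the medians were 82.6 kb and 35.9 kb, so the central genes' median was below that of all genes for mESC regions and above it for EpiLC regions.

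The 16 genes of groups 9 to 13, which act in the caudal trunk, limbs and genital tubercle, each lay closer to an mESC than to an EpiLC region. Hoxb13, a gene of the tail and the prostate, started inside the mESC region of 13285 bp and 128 kb from the nearest EpiLC region. Hoxd12, Hoxd11 and Hoxd13, which pattern limbs and digits, lay 0 kb, 0.274 kb and 4.06 kb from the same mESC region. Their EpiLC distances were 95.4 kb, 99.9 kb and 88.7 kb. Hoxc13, which is needed for hair and nails, was just outside the limit of 5 kb, at 5.06 kb from the mESC region in its own intron. Hoxa13, needed for digits and the urogenital tract, lay 53.6 kb from an mESC region and 145 kb from an EpiLC region, the largest distance in the EpiLC table. The posterior medians were 23.1 kb and 93.7 kb. Of all 38 genes, 29 lay nearer to an mESC region and 9 nearer to an EpiLC region. For every Hoxb and Hoxd gene the nearest mESC region was longer than 5 kb.

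**Figure D3:**
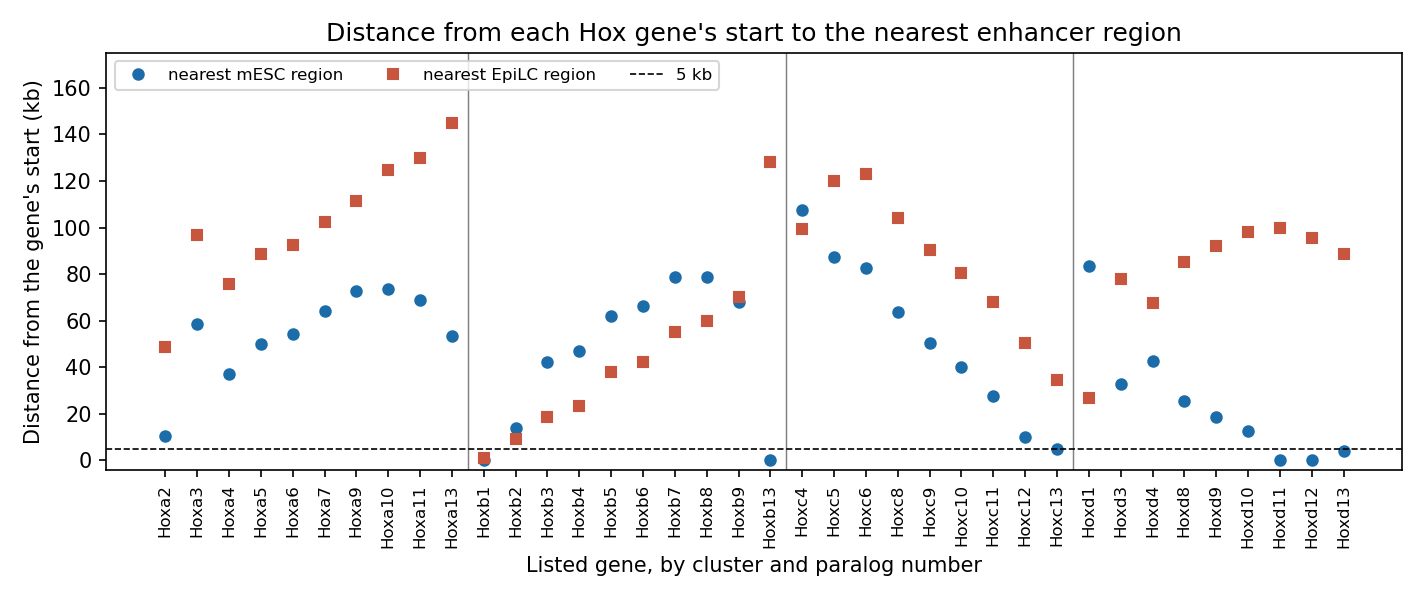
Distance in kb (y axis) from the start of each of the 38 listed genes (x axis, by cluster and paralog number) to the nearest mESC region in blue and the nearest EpiLC region in red, with a dashed line at 5 kb. Hoxb1 is the single gene under the line in both tables, and Hoxb13 and Hoxd11 to Hoxd13 are under it for mESC regions.

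In total, 5 of the 38 genes (13.2%) had an mESC region within 5 kb of the start, namely Hoxb1, Hoxb13, Hoxd11, Hoxd12 and Hoxd13. Over all gene intervals the share was 6.46%, and over protein-coding ones 6.37%. The 5 genes share 3 regions, each longer than 5 kb, and without mESC regions of that length the count was 0, against 5.24% of all intervals. One gene of 38 (2.63%), Hoxb1, had an EpiLC region within 5 kb, against 22.2% of all intervals and 22.8% of protein-coding ones. Neighbours in a cluster share their regions, so these 38 genes are not independent observations. Within 50 kb of a region were 19 genes (50.0%) in the mESC table and 9 (23.7%) in the EpiLC table, against 36.2% and 57.6% of all intervals. Of the 19, 5 were Hoxb and 8 were Hoxd genes, each nearest to 1 of the same 3 long mESC regions. The share within 50 kb without those regions was not computed.

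The 38 starts had a median distance of 48.6 kb to an mESC region and 86.8 kb to an EpiLC region. For all genes the order was the reverse, at 82.6 kb and 35.9 kb. For all 10 Hoxb and all 9 Hoxd genes the nearest mESC region was longer than 5 kb, so the mESC median also rests on such regions. Per cluster the mESC median ran from 18.5 kb in Hoxd through 50.2 kb in Hoxc and 54.5 kb in Hoxb to 56.4 kb in Hoxa. The EpiLC median was lowest in Hoxb, at 40.3 kb, and was 88.7 kb in Hoxd, 90.5 kb in Hoxc and 99.7 kb in Hoxa. Hoxb was therefore the one cluster in which the EpiLC regions were the nearer by the median. Regions overlapped the interval of 4 genes in the mESC table (Hoxb1, Hoxb13, Hoxc13 and Hoxd12), or 10.5%, against 13.5% of all intervals and 14.8% of protein-coding ones. In the EpiLC table they overlapped Hoxb3 alone, against 27.4% and 29.2%.

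Regions found in both tables lay in the flanks, mainly those of Hoxa. Of the flank regions of all 4 clusters, 4 of 12 mESC and 4 of 19 EpiLC regions overlapped the other table, 3 of them at Hoxa and 1 at Hoxb. The share of all regions that overlap the other table was not computed, so these counts have no background beside them. Of the Hoxa flank regions, Halr1 was the nearest gene start to 2 mESC and 3 EpiLC regions. Halr1 is a long noncoding RNA gene beside the anterior end of Hoxa. An EpiLC region of 5650 bp (52102252 to 52107901), centred in an intron of Halr1 and overlapping an exon, contained an mESC region of 1586 bp (52104987 to 52106572). The longest EpiLC region there, 8175 bp at 52074652 to 52082826, contained an mESC region of 1093 bp (52078397 to 52079489). The longest mESC region of the Hoxa flanks, 7796 bp at 52006057 to 52013852, lay in Skap2, an adaptor protein gene, and overlapped no EpiLC region. The mESC region nearest to the cluster was 607 bp long and lay 7.93 kb before the Hoxa2 end. On the posterior side, an mESC region of 646 bp covered the start of Evx1os, a transcript opposite Evx1, which is an even-skipped homeobox gene linked to Hoxa.

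At the other clusters more of the EpiLC flank regions lay at gene starts. In the flanks as a whole, 6 of 19 EpiLC regions and 1 of 12 mESC regions were centred within 1 kb of a GENCODE M21 start. The same share over all regions was not computed, so the contrast cannot be told apart from how each table was defined. At Hoxb the longest EpiLC region, 6950 bp at 96003177 to 96010126, covered the start of Igf2bp1, which encodes an mRNA-binding protein. An EpiLC and an mESC region overlapped 6.53 kb from the start of Gip, the gene of an incretin hormone. An mESC region lay 2.31 kb from the start of Calcoco2, an autophagy receptor gene. At Hoxc the longest region of each table lay in Cbx5, the gene of a heterochromatin protein: an EpiLC region of 5500 bp at an annotated start and an mESC region of 710 bp in an exon, whose nearest start in the gene table was that of Smug1. Before Hoxc13, EpiLC regions of 300 bp and 425 bp lay 35.2 kb and 34.6 kb from the cluster. At Hoxd the longest EpiLC region, 1100 bp, covered the start of Lnpk, 88.7 kb past Hoxd13, and another lay 24.6 kb past Hoxd1. The single mESC flank region of Hoxd, 822 bp, had Mtx2 as its nearest start.

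The clusters were rich in CpG and poor in repeats, and their flanks were nearer to the chromosomes as a whole. CpG dinucleotides numbered 29.9 per kb in Hoxa, 20.9 in Hoxb, 21.5 in Hoxc and 28.0 in Hoxd, against 8.26 over all chromosomes. In the flanks they numbered 11.2, 12.8, 10.3 and 9.12 per kb. Of 26488 windows of 100 kb, 0.159% were as CpG-rich as Hoxb, the lowest of the 4. Repeat-masked bases made up 13.4% of Hoxa, 24.6% of Hoxb, 15.9% of Hoxc and 14.4% of Hoxd, against 36.4% over all chromosomes. Hoxb was thus the cluster with the most repeats and the fewest CpGs per kb.

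**Figure D4:**
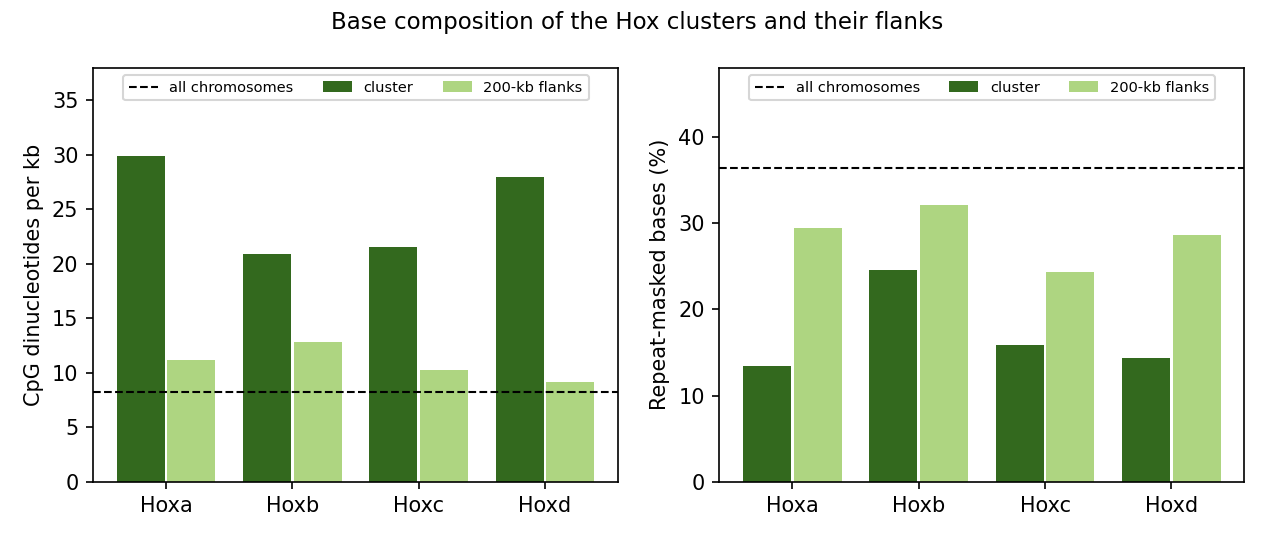
CpG dinucleotides per kb (left) and repeat-masked bases in percent (right) in each cluster and its flanks, with the value over all chromosomes as a dashed line. Every cluster is above its flanks in CpG density and below them in repeats.

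Promoter sequence was described for the members with an entry. The RefSeq promoter table for mm10 holds 24 promoters of 22 members, each of 300 bases around the start, most of them upstream. The observed over expected CpG ratio had a median of 0.627, with a range from 0.257 to 1.02, against 0.384 over 32851 promoters. 12 of the 24, or 50.0%, reached 0.6, against 35.8% of all. The 240 bases upstream are shown for Hoxb1, which has regions of both tables, with the PBX-HOX motif in capitals. They are also shown for Hoxa13, which is far from both, with each CpG in capitals and on the minus strand.
Hoxb1, chr11:96365508-96365747: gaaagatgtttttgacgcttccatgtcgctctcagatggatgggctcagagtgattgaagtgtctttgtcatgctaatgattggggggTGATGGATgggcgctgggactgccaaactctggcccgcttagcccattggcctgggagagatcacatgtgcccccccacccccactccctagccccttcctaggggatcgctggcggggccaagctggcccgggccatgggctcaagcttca
Hoxa13, chr6:52260891-52261130: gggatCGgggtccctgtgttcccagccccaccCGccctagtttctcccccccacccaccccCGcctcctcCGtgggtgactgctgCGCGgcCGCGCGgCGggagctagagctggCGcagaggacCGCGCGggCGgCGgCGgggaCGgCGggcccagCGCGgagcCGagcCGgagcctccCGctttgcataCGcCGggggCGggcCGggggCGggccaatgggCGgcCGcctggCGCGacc
Hoxb1 is known for an element upstream of its start through which Hox and Pbx proteins maintain its expression. The upstream sequence of Hoxb1 contains 7 CpGs and that of Hoxa13 contains 33, the most among these promoters. By comparison, Hoxd13, within 5 kb of an mESC region, had 27, while Hoxa9 and Hoxa7, far from both tables, had 3 and 7.

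Motifs were searched on both strands by their letters. The PBX-HOX motif was TGATTGAT or TGATGGAT. It was found in 3 of the 24 member promoters, against 1.49% of all promoters. These were at Hoxa2, Hoxb1 and 1 of the 2 promoters of Hoxd11. The Hox and Pbx element upstream of Hoxb1 was known beforehand, so the match there is not independent of the choice of letters. No enrichment is read from these shares. The octamer ATGCAAAT, bound by Oct4, and the SOX letters CATTGT were found in 0 of the 24, against 1.74% and 12.6% of all promoters. Over its whole 10062 bp, the mESC region over Hoxb1 held the PBX-HOX letters 2 times, with 0 in its central 300 bases. Over its 13285 bp, the region over Hoxb13 held the octamer 2 times and the SOX letters 5 times. The mESC region over Hoxd12 held none of these motifs. These counts cover whole long regions and cannot be set against shares of short windows. In central windows of 300 bases the octamer was present in 8.78% of mESC and 3.37% of EpiLC regions, the SOX letters in 27.6% and 14.4%, and the PBX-HOX letters in 1.98% and 1.3%. Pairs of AGGTCA or AGTTCA half-sites, 5 or 2 bases apart as retinoic acid receptors bind them, were found in none of the regions in or around the clusters. They were present in 0.114% and 0.182% of central mESC windows, so an absence is common. A match of letters says only that they are in the window.

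Genes that act with or upstream of Hox were counted by the same rule, from lists chosen with earlier results of these data known. Of 9 ParaHox genes and genes linked to them or to Hox, 4 (44.4%) had an mESC region within 5 kb and 0 had an EpiLC region, against 6.46% and 22.2% of all intervals. The 4 were Cdx1 and Gsx1, each with its start inside a region, Cdx2 at 2.47 kb and Evx1 at 1.0 kb. Cdx genes encode activators of Hox genes in the tail bud. Of 9 Hox cofactors, 4 (44.4%) had an EpiLC region within 5 kb, against the same 22.2%: Meis1 at 1.08 kb, Meis2 at 4.74 kb, Pbx3 at 0.357 kb and Pbx4 inside one. Both shares rest on 9 genes.

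Of 14 retinoic acid pathway genes, 1 (7.14%) had an mESC and 3 (21.4%) had an EpiLC region within 5 kb, close to the 6.46% and 22.2% of all intervals. The first was Aldh1a2, the enzyme that makes retinoic acid in the embryo, at 1.35 kb, and the others were the receptors Rara and Rxrb and the retinaldehyde reductase Dhrs3, each with its start inside a region. Of 24 Polycomb and MLL regulators, 6 (25.0%) had an mESC and 11 (45.8%) had an EpiLC region, above the shares of all intervals. Kmt2b, a methyltransferase of the MLL family, lay 0.805 kb and 0.126 kb from them, and Phc1, a Polycomb subunit, started inside a region of each table. Among 43 homeobox and Pax genes outside the clusters, 6 (14.0%) had an mESC and 2 (4.65%) an EpiLC region, against 13.2% and 2.63% of the Hox genes. These shares were close to those of the Hox genes, and Otx2, a head and epiblast gene, had a region of both tables, at 4.12 kb and 0 kb.

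**Figure D5:**
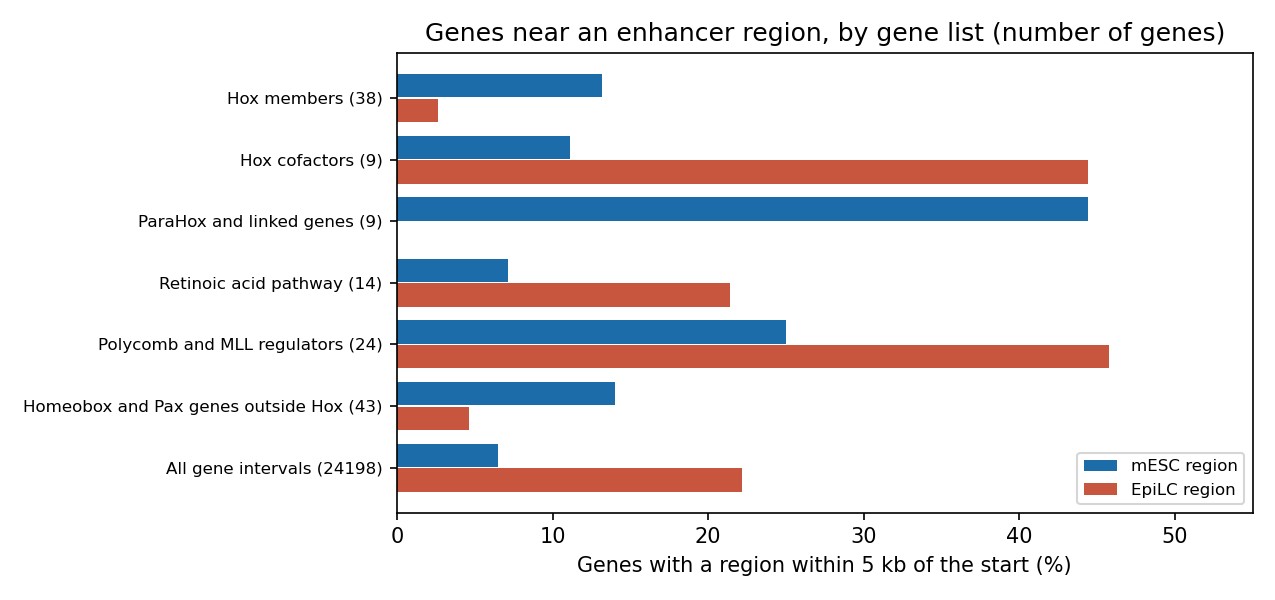
Percent of genes with a region within 5 kb of the start (x axis) for each gene list, with the number of genes in brackets, mESC regions in blue and EpiLC regions in red. Hox genes and the other homeobox and Pax genes are above all gene intervals for mESC regions and below them for EpiLC regions.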

How the data were processed

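ChIP-seq libraries were described from the labels only, and the 3 deposited tables gave the values: mESC enhancers, EpiLC enhancers and non-redundant genes. Per the labels' design text, the authors took the enhancers from earlier publications and lifted them to mm10. The deposited values are coordinates, with no count or score; starts were read as counting from 0 and printed 1-based, which is uncertain by 1 bp for the enhancer tables. Tools listed in the submitters' processing notes are bedtools 2.29.2, Bowtie2 2.3.4.1 and Trimmomatic 0.38, with no role given.

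Gene intervals were named by position from RefSeq and GENCODE M21. Of 24402 rows, 120 duplicates and 19 beyond a chromosome were left out. Shares over all genes use 24198 intervals, without 65 longer than any RefSeq gene. Counting was tested on simulated positions (Python 3.11.15, pandas 2.3.3).

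The members, gene lists and measures were chosen with earlier results of these data known. Named genes were members within 5 kb of a region or overlapped by one, cluster ends, the member farthest from any region, and per cluster and table the gene start nearest to most flank regions (ties by name). Evx1os, Skap2, Igf2bp1 and Gip, and members named only for a range or median, were named for the regions at them, after their values were seen. No tests were run. Alternatives changed the flank, the distance limit, the overlap rule and the starts.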

Additional observations from a re-analysis of the deposited data

How the results depend on the processing

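Of 60 alternative settings over 15 counts, densities and differences, 41 left the value within 1.5 times the reported one, 15 moved it further and 4 turned its sign. The mESC regions inside the clusters numbered 3, and became 5 with spans widened by 10 kb at each end and 1 without mESC regions longer than 5 kb, a setting added after seeing the data. The latter setting brought the genes within 5 kb of an mESC region from 5 to 0, since the regions concerned are all of that length. By construction, a limit of 50 kb raised that count to 19. For EpiLC regions, the count of 1 gene became 2 at 10 kb and 9 at 50 kb. The 4 EpiLC flank regions that overlapped an mESC region became 0 when at least 50% of both had to be shared, the mESC regions being the shorter. The differences were added after seeing the data. Clusters minus flanks in mESC regions per 100 kb, reported as -0.131, was 0.0124 by any overlap, -0.275 with regions wholly within or without promoter-centred ones, and -0.419 without regions over 5 kb. Clusters minus all chromosomes in mESC regions, 0.296, was 0.0898 with regions wholly within and -0.0857 without those over 5 kb. For EpiLC regions, clusters minus flanks, -0.775, was -0.463 without promoter-centred regions. At Hoxb alone the latter difference, -0.0999, was 0.65 under that setting and -0.35 by any overlap. Promoter-centred refers here to starts of the gene table, which leaves in the EpiLC region inside Hoxb3 that lies at a GENCODE M21 start. The percent of Hox genes minus that of all genes near an mESC region, 6.7 points, was -5.24 without regions over 5 kb and 13.8 at 50 kb, and for EpiLC regions -19.6 became -33.9 at 50 kb. Where no construction shows it, the cause was not tested. Starts of 7 genes in the gene table differed from RefSeq by over 1 kb, by up to 16.3 kb at Hoxc4, and with RefSeq starts the mESC and EpiLC counts were 6 and 1. With counts this small, a single region changes each value, and the depth behind the regions is unknown. No paired analysis was possible because the tables hold no values per library.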

Other observations

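The cluster spans also contain noncoding genes, which were not among the 38 members. Hotair, a long noncoding RNA gene between Hoxc11 and Hoxc12, started 21.1 kb from an mESC and 61.4 kb from an EpiLC region. Haglr, beside Hoxd1, started 83.6 kb and 26.9 kb away. Gm11538 started 0.129 kb from the mESC region over Hoxb13. Among the microRNA genes of the clusters, Mir10a, in Hoxb, lay 48.2 kb and 24.5 kb away, and Mir10b, in Hoxd, 46.8 kb and 63.7 kb. For the Mir196 genes the mESC and EpiLC distances were 61.8 kb and 76.5 kb at Mir196a-1, 46.5 kb and 86.8 kb at Mir196a-2, and 75.7 kb and 114 kb at Mir196b. Mir615, in Hoxc, lay 88.1 kb and 119 kb away. Over all gene intervals the medians were 82.6 kb and 35.9 kb.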
